A study of Mus musculus with 24 samples.

Results

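Livers of WSB/EiJ and C3H/HeJ mice fed the same methyl-replete control diet were compared across all genes, with 4 single-colour arrays per strain. These 8 arrays are those that the labels name as control samples 1 to 4 of each strain, out of 24 arrays in the series. All mice were males aged 20 weeks that had eaten an iron-supplemented, amino acid-defined diet for 12 weeks from the age of 8 weeks. In the control groups, methionine was added to that diet at 0.4%. Choline bitartrate was added at 0.3%, and folic acid at 2 mg/kg. Arrays of 2 further kinds are set beside them: A/J mice on the same control diet (4 arrays), and WSB/EiJ and C3H/HeJ mice on a diet without choline or folic acid and with 0.17% methionine (4 arrays each). The series is about differences between strains in the liver damage that the deficient diet causes, so the control arrays give the difference that was present without it. C3H/HeJ is a classical inbred strain that carries an inactivating missense mutation of Tlr4. WSB/EiJ is a wild-derived inbred strain, so its genome differs from the mouse reference, on which the array was designed, at more positions than that of a classical strain.

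The liver clears bile acids, drugs and ammonia, stores and exports lipid, and secretes most plasma proteins, and hepatocytes supply most of its RNA. Macrophages (Kupffer cells), sinusoidal endothelium, stellate cells and bile duct cells supply the rest, together with blood held in the organ. In such bulk RNA, fewer cells of a type and less RNA per cell cannot be told apart. Many liver genes also follow the hour of the day through the circadian clock, and others follow the male pattern of growth hormone release. The hour of collection is not given in the sources used here.

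The hepatocyte markers were high in both strains. Albumin (Alb) had levels of 11.08, 11.04, 10.91 and 11.53 in C3H/HeJ and of 11.28, 11.19, 11.28 and 11.25 in WSB/EiJ, and the groups overlapped (difference 0.11 ± 0.13, adjusted p = 0.512). Levels are log2 processed signals minus the 75th percentile of the array, always listed for replicates 1 to 4, and they are not comparable between genes because probes differ in brightness. Differences are WSB/EiJ minus C3H/HeJ on this log2 scale, with ± the standard error of the limma fit to the 8 arrays (n = 4 per strain), and adjusted p is Benjamini-Hochberg over all genes tested. A gene is called where adjusted p is at most 0.05. The labels name the replicates as separate samples without saying that each is a separate animal, so p measures the spread between these samples. On each array, 44.8% to 51.7% of the spots for genes passed the scanner software's background flag, and 0 were saturated. The mean correlation of an array with its own group ran from 0.9858 for C3H/HeJ replicate 2 to 0.9946, and with the other strain from 0.9495 to 0.953.

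Of 13901 genes tested, 6266 (45.1%) were called. Of these, 3577 were higher in WSB/EiJ (25.7% of the genes tested) and 2689 were lower (19.3%), and 7354 genes had an unadjusted p under 0.05. In 6339 genes (45.6%) the 4 arrays of one strain did not overlap with the 4 of the other. Most called differences were small: their median size was 0.69, and 1963 genes differed by at least 2-fold, 1023 higher and 940 lower. The median over all genes tested was 0.08. The share of called genes that was higher, 57.1%, depended on the scaling. It was 33.1% when arrays were scaled on the E1A spike-in probes, which moved the median of all genes by -0.20, and 46.3% after normexp background correction with quantile normalization. Small differences are therefore read against that median, and for several gene groups below the split under other scalings is given beside it. Of 26 list counts of 1 to 3 members, 12 moved by over 1.5 times in a fit with 1 array left out. All 3 slides held arrays of both strains, and 6178 of the 6266 called genes (98.6%) had the same sign within each slide. Of the 7635 genes not called, 3082 did. The genes were called on these same arrays, so high agreement follows largely from the call.

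**Figure D1:**
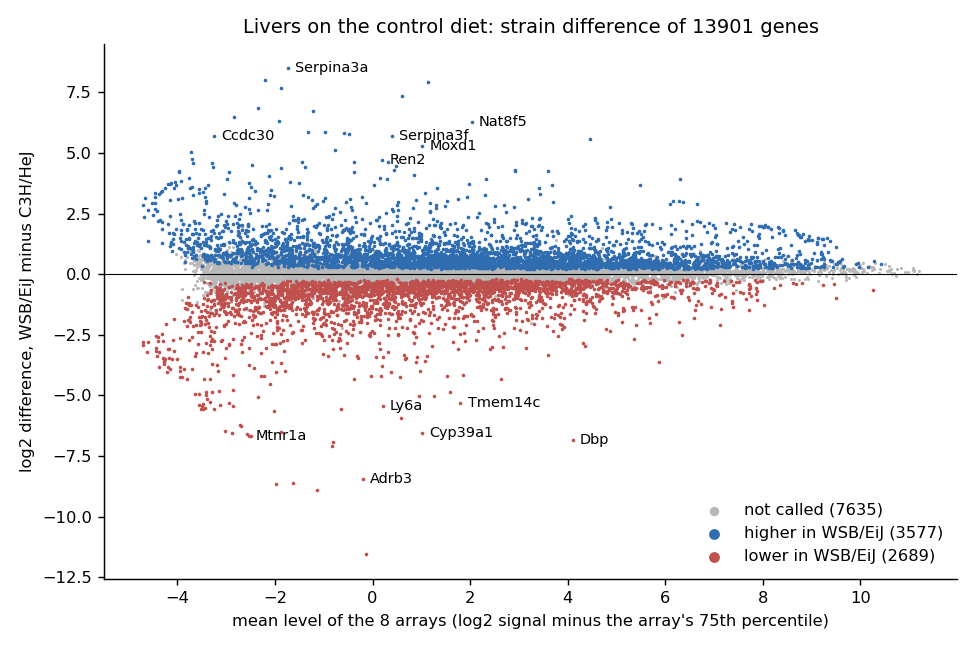
Strain difference (log2, WSB/EiJ minus C3H/HeJ) of each of 13901 genes against its mean level over the 8 control arrays (log2 signal minus the array's 75th percentile). Called genes are blue where higher (3577) and red where lower (2689) in WSB/EiJ, and names mark Adrb3, Dbp and Mtnr1a among the lowest and Serpina3a and Nat8f5 among the highest.

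Where a gene was not well above background on any array of one strain, only a bound of its fold is given, as "at least". It sets the brighter strain's mean against a floor. On each array of the dimmer strain the floor is the weakest signal of any probe that passed the background flag, or the gene's measured signal if that is higher. Genes are named by a rule given with the processing. Further members of the gene lists were added after their values were seen.

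The largest differences that at least 2 probes shared, with every probe dark in one strain, included receptors and a protease inhibitor. Adrb3, the beta-3 adrenergic receptor, had levels of 3.82, 4.49, 4.09 and 3.66 in C3H/HeJ and of -3.56, -4.11, -5.91 and -4.09 in WSB/EiJ. It was at least 238-fold lower in WSB/EiJ (adjusted p = 2.61e-06), and A/J livers had a mean level of 0.81. Mtnr1a, a melatonin receptor, was at least 27.4-fold lower, from a mean of 0.80 to one of -5.88. Zfp605, a zinc finger gene, was at least 14.5-fold lower and Lnx1, a ubiquitin ligase, at least 11.1-fold lower. In the other direction, Serpina3a, a serine protease inhibitor of clade A, had levels of -5.61, -6.20, -6.46 and -5.67 in C3H/HeJ and of 2.15, 2.62, 2.72 and 2.53 in WSB/EiJ, and was at least 90.7-fold higher. Ccdc30 was at least 12.0-fold higher, and the X-linked genes Tmsb15b1 and Nup62cl were at least 4.02-fold and 3.64-fold higher. In all, 90 called genes had every probe below background on the C3H/HeJ arrays and 115 on the WSB/EiJ arrays. Such genes entered the test only through the strain in which they were bright, so these counts follow from how they were chosen.

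Among genes above background on all 8 arrays and called alike in at least 2 probes, those lower in WSB/EiJ were led by Dbp, a clock output factor described below. Rgs3, which ends G-protein signals, was 19.8-fold lower (-4.31 ± 0.19). Raet1e, a ligand of the natural killer cell receptor NKG2D, had levels of 3.38, 1.95, 3.11 and 3.44 in C3H/HeJ and of -1.10, -0.72, -1.10 and -1.12 in WSB/EiJ, a 15.8-fold difference (adjusted p = 1.82e-05). The amino acid transporter gene Slc38a6 was 10.5-fold lower with very little spread, at 2.77, 2.80, 2.77 and 2.91 against -0.64, -0.55, -0.45 and -0.65 (adjusted p = 4.53e-08). Its other probe differed far less (-0.59), and a further probe of Rgs3 (0.05) and 1 of Pilra (-0.40) were not called. Serinc2 (10.9-fold), Ugt3a2 (7.84-fold), Pilra (6.84-fold), Hunk (6.62-fold), Haus7 (5.77-fold) and Sipa1l2 (5.48-fold) followed. Ugt3a2 encodes a UDP-glycosyltransferase, Pilra an inhibitory receptor of myeloid cells, Hunk a kinase and Haus7 a spindle protein.

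The genes higher in WSB/EiJ by the same rule included enzymes of methyl group and thyroid hormone metabolism. Serpina3f had levels of -2.37, -2.86, -2.42 and -2.14 in C3H/HeJ and of 3.12, 3.14, 3.09 and 3.64 in WSB/EiJ, a 51.7-fold difference (adjusted p = 1.58e-07). Its probe lists transcripts of 2 genes, so close relatives in the Serpina3 cluster may share the signal. Its other probe, which lists Serpina3f alone, was higher by 0.90. Nnmt, which methylates nicotinamide with S-adenosylmethionine, had levels of -0.15, 1.86, -0.32 and 1.81 in C3H/HeJ and of 5.01, 5.01, 5.17 and 5.0 in WSB/EiJ. The 19.0-fold difference (adjusted p = 2.18e-04) was far larger than the spread of the C3H/HeJ arrays, which was itself wide. Dio1, the deiodinase that activates thyroid hormone, was 9.84-fold higher (3.30 ± 0.59). Its C3H/HeJ arrays ran from 0.55 to 3.71, and without C3H/HeJ replicate 2, the highest of them, the difference was 3.94. Ccl27a (15.8-fold), Ttc39a (12.9-fold), Acnat2 (12.8-fold), Ugt1a10 (11.6-fold), Bicc1 (8.45-fold, but 0.83 on the log2 scale in its other probe) and Lonrf3 (7.81-fold) were also in this group. Acnat2 conjugates fatty acids to amino acids and Bicc1 binds RNA. The probe chosen for Ccl27a lists 4 genes and that for Ugt1a10 lists 2.

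Genes measured by 1 probe gave differences of similar size, with no second probe to set beside them. Many genes reported further below also had only 1 tested probe, so their differences were not compared across probes. Among them are Arntl, Per3, Scd1, G6pc, Alas2, Cx3cr1, Fcgr4, Elovl3, Cyp2c23, Fitm1, Sult1c2, Orm3, Hamp2, Serpina3i, Nqo1 and Gbp3. Nat8f5, an acetyltransferase-like gene, was 77.7-fold higher in WSB/EiJ, with levels of -1.35, -0.82, -0.95 and -1.32 against 4.93, 5.03, 5.39 and 5.32. Moxd1, a monooxygenase gene with male-biased expression in mouse liver, was 38.5-fold higher (5.27 ± 0.66). Its C3H/HeJ arrays ran from -3.22 to 0.24, and without C3H/HeJ replicate 2 the difference was 5.89. Ren2, a renin gene with a close paralog in Ren1, was 26.3-fold higher. On the other side, Cyp39a1, an oxysterol hydroxylase, was 93.0-fold lower, Ly6a, a surface antigen of stem and activated cells, was 43.0-fold lower, and Tmem14c, a haem transport protein of mitochondria, was 40.0-fold lower. Cdkn1a, the cell cycle inhibitor p21, was added after its value was seen: it was above background on 2 of 4 C3H/HeJ arrays and all 4 WSB/EiJ arrays, with means of -3.92 and 1.95 and a difference of 5.86 ± 0.44 (adjusted p = 1.63e-05).

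Clock genes held some of the largest differences, in both directions. Arntl and Clock form the activator that drives the Per, Cry, Nr1d, Dbp, Tef, Hlf and Ciart genes, whose products repress it or carry its output. Of 18 members tested, 10 were lower in WSB/EiJ, 6 were higher, and Rora and Per1 were not called. The median of the list was -0.80 against 0.08 for all genes. Dbp had levels of 7.48, 7.85, 7.43 and 7.36 in C3H/HeJ and of 0.55, 0.47, 1.24 and 0.43 in WSB/EiJ. That is a 116-fold lower level (-6.86 ± 0.20, adjusted p = 9.34e-08), in both of its probes. Arntl went the other way, with -1.59, -2.81, -1.47 and -1.12 in C3H/HeJ and 2.68, 2.69, 2.75 and 2.78 in WSB/EiJ (22.2-fold higher, adjusted p = 1.12e-05). Per3 had levels of -0.78, -0.22, -0.72 and -1.03 in C3H/HeJ, was not well above background on any WSB/EiJ array, and was at least 9.72-fold lower.

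Most other repressors and outputs were lower with Dbp. Ciart was lower by -4.79 ± 0.74, Nr1d1 by -2.43 ± 0.38, Tef by -1.80, Hlf by -1.66, Per2 by -1.29, Cry2 by -0.84 and Nr1d2 by -0.76, and Bhlhe41, dark on all WSB/EiJ arrays, was at least 2.23-fold lower. Those higher included Cry1 (1.89 ± 0.20), Nfil3 (1.83), a repressor of the same promoter elements that Dbp activates, Clock (1.11 ± 0.09) and Bhlhe40 (0.72). The counts were 5 or 6 members higher and 10 lower under every scaling and with any 1 array left out. The median within slides was -0.65, -0.78 and -0.81. A/J livers on the same diet held intermediate and less even levels of Dbp, at 4.97, 4.91, 5.88 and 1.32, and of Arntl, at 1.17, 1.14, 0.52 and 1.84.

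**Figure D2:**
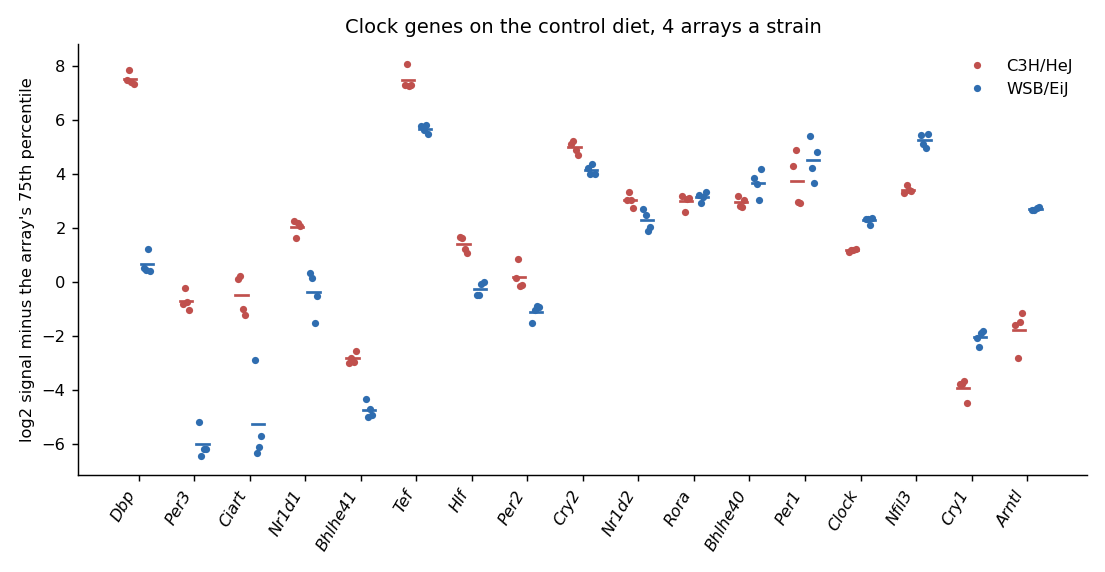
Levels (log2 signal minus the array's 75th percentile) of the clock genes reported here on the 4 C3H/HeJ (red) and 4 WSB/EiJ (blue) control arrays, ordered by strain difference, with bars at the means. Dbp, Per3 and Ciart lie far lower in WSB/EiJ, Arntl far higher, and the arrays of a strain lie close together in most genes.

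The E-box CACGTG is the DNA element that the Arntl and Clock dimer binds. In the RefSeq promoters of GRCm38.p6, the 250 bases before the start held this E-box in 5 of the 16 clock genes with a promoter in the table. Of all 32851 promoters, 6.02% held the E-box. The clock genes had 21 promoters and a gene counted if any of them held the E-box. A share of genes and a share of promoters are therefore not directly comparable. CACGTG is its own reverse complement, so 1 search covers both strands. Examples are shown because their genes did not all differ in 1 direction, with the E-box in capitals:
Per1, chr11:69098771-69098800, plus strand: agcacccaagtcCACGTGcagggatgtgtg
Cry1, chr10:85185097-85185126, minus strand: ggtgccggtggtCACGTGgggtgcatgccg
Tef, chr15:81802534-81802563, plus strand: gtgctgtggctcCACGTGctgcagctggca
Bhlhe41, chr6:145865556-145865585, minus strand: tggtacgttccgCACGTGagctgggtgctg
Ciart, chr3:95882327-95882356, minus strand: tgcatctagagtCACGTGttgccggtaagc
Ciart, chr3:95882269-95882298, minus strand: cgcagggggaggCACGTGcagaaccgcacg
Ciart, chr3:95882255-95882284, minus strand: cgtgcagaaccgCACGTGtctgggaggggg
Of these 5 genes, Cry1 was higher in WSB/EiJ, Ciart, Bhlhe41 and Tef were lower, and Per1 was not called (0.77). The match is a description of the letters in this window.

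Interferon-stimulated genes were mostly lower in WSB/EiJ on the control diet. These genes encode antiviral proteins that rise when interferon is sensed. Of 29 tested, 19 were lower and 3 were higher, with a median of -0.87, and with other scalings between 18 and 21 were lower and 1 to 3 higher. Oas1a, which makes the signal that activates RNase L, had levels of 3.61, 3.36, 3.91 and 3.55 in C3H/HeJ and of 1.57, 1.20, 1.30 and 1.49 in WSB/EiJ. It was 4.66-fold lower (adjusted p = 5.09e-06) in both of its probes, with no overlap. Ifi44l was not well above background on any WSB/EiJ array and at least 4.04-fold lower, and Mx1, the dynamin-like restriction factor, was at least 8.64-fold lower in the same way. Ifi44 (-2.86), Usp18 (-2.74), Irf7 (-2.20), Xaf1 (-2.08), Ifit3 (-1.38) and Isg15 (-1.26) were lower, while Stat2 (0.36), Bst2 (0.47) and Zbp1 (0.84) were higher.

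The interferon-inducible GTPases and the Ifi200 family went the same way, with 11 of 21 lower, 3 higher and a median of -0.65. The number higher was 1 without C3H/HeJ replicate 2 or 4 or WSB/EiJ replicate 2, 3 or 4, and spike-in scaling gave 1 higher and 14 lower. Gbp3 was 8.38-fold lower (-3.07 ± 0.16) and Gbp7 2.83-fold lower (-1.50 ± 0.13). Ifi202b, which varies between strains in many mouse tissues, was the exception among the larger differences, at 3.31 ± 1.06. Its C3H/HeJ levels were -6.36, -6.01, -0.97 and -5.42 and its WSB/EiJ levels -1.50, -1.38, -1.65 and -1.01, so 1 C3H/HeJ array overlapped. Its call (adjusted p = 0.0314) was lost in 7 of the 8 fits with 1 array left out, where adjusted p ran from 0.0602 to 0.0813. Without C3H/HeJ replicate 3, the high one, the difference was 4.55 (adjusted p = 1.0e-05).

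Macrophage and monocyte markers moved with the interferon genes. Of 16 tested, 13 were lower in WSB/EiJ and 1, Mpeg1, was higher (0.96), with a median of -1.22. Adgre1, which encodes a surface antigen of mature macrophages, had levels of 1.07, 1.07, 1.22 and 0.49 in C3H/HeJ and of 0.03, -0.33, -0.52 and -0.33 in WSB/EiJ (2.38-fold lower, adjusted p = 5.84e-04). Cx3cr1, the fractalkine receptor, had levels of -0.89, -1.0, -0.22 and -0.03 against -3.26, -3.27, -3.59 and -3.53, and Fcgr4 was 6.27-fold lower. The Kupffer cell markers Timd4 (-2.12), Marco (-1.54), Cd5l (-1.23), Clec4f (-0.97) and Vsig4 (-0.57) were lower as well, as were Itgam (-1.64), Cd68 (-1.21) and Csf1r (-0.69). Lyz2 (-0.51) and Trem2 (-0.39) were not called. Cd163, Fcgr1, Ccr2, Ly6c2 and Gpnmb were not tested, because no probe with their names passed the background filter. The log2 of the summed signal of the list ran from 6.83 to 7.34 in C3H/HeJ and from 6.36 to 6.62 in WSB/EiJ. The part of these markers in the interferon result was not tested. The complement genes C1qa (-1.49), C1qb (-0.97) and C1qc (-1.15), which macrophages make, were lower too.

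Erythroid markers were also lower in WSB/EiJ: 6 of 7 tested, with a median of -1.36. Alas2, the first enzyme of haem synthesis in red cell precursors, had levels of 6.22, 6.01, 5.77 and 6.19 in C3H/HeJ and of 3.42, 3.90, 3.62 and 3.82 in WSB/EiJ (5.13-fold lower, adjusted p = 4.65e-06). Hba-a2 was 2.00-fold lower (-1.0 ± 0.19), and its probe lists 2 genes. Hbb-bt (-1.66), Hbb-bs (-1.37), Hbb-b2 (-1.36) and Hba-a1 (-1.20) were lower, and Slc4a1 was not called (-1.21). All called members but Alas2 are globin genes, and 0 of the 7 had several probes tested. The part of signal shared between globin probes, or of variants under them, was not tested. The log2 of the summed signal ran from 10.31 to 11.18 in C3H/HeJ and from 9.27 to 9.68 in WSB/EiJ. The medians within the slides were -2.37, -1.14 and -0.50, so their size varied between slides. The labels state that the mice were bled under anaesthesia before the liver was frozen, and the share of blood in these samples was not tested.

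Few lymphocyte and neutrophil markers were tested, 8 and 5, so their counts of calls are small. The share called was below the 45.1% of all genes tested for lymphocyte markers and above it for neutrophil markers. Among lymphocyte markers, 1 of 8 tested was higher (0 under spike-in or normexp settings) and 2 were lower. For 12 of 20 listed genes, no probe with that gene name passed the background filter. Cd79b, a B cell receptor subunit, was at least 3.10-fold lower and the chemokine Ccl5 was 1.69-fold lower (-0.76 ± 0.18). Among neutrophil markers, Camp (1.19 ± 0.14) and Ly6g (0.58 ± 0.12) were higher, S100a9 was lower (-2.38), and 2 were not called.

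The antigen-presenting genes differed gene by gene, not as a group. In class II, H2-Eb1, a beta chain, had levels of 2.08, 1.58, 1.69 and 1.74 in C3H/HeJ and of -2.41, -2.95, -1.96 and -2.85 in WSB/EiJ, a 19.8-fold lower level from 1 probe. H2-Ea, its alpha chain partner, was the reverse, also from 1 probe. It was not well above background on any C3H/HeJ array and at least 3.18-fold higher in WSB/EiJ. H2-Ab1 was higher (2.83 ± 0.26) while Cd74, the invariant chain they share, was not called (0.26). In class I, 10 of 25 members were lower and 5 were higher, with a median of -0.04, and spike-in scaling gave 11 and 3. H2-Q8 was 2.44-fold higher, H2-D1 was 2.17-fold higher and H2-Q1 was lower (-2.22). H2-K1 had levels of 8.58, 8.08, 8.46 and 8.53 against 8.44, 8.44, 8.43 and 8.39 and was not called (0.01 ± 0.12). Its other probe was called lower. These genes are among the most variable in sequence between mouse strains, and the part of variants under their probes was not tested.

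Toll-like receptor genes were split, with 6 of 16 higher and 4 lower. Tlr12 was 7.22-fold lower (-2.85 ± 0.11) and the adaptor kinase gene Irak4 was 2.12-fold higher (1.08 ± 0.12) in both probes. Tlr4, the endotoxin receptor, had levels of -3.51, -3.80, -3.30 and -3.61 in C3H/HeJ and of -2.88, -2.95, -2.91 and -2.92 in WSB/EiJ, so its RNA was 1.56-fold higher in WSB/EiJ, with 2 C3H/HeJ arrays above background. The direction of this list moved with the scaling, with 4 higher and 6 lower under spike-in scaling.

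Fatty acid and triglyceride synthesis genes were lower more often than higher, with 7 of 22 lower, 3 higher and a median of -0.34. Quantile, spike-in and normexp settings gave 11 or 12 lower. Scd1, which puts the first double bond into stearate, had levels of 8.22, 6.89, 7.05 and 8.54 in C3H/HeJ and of 4.52, 3.49, 3.76 and 4.46 in WSB/EiJ (12.3-fold lower, adjusted p = 1.70e-04). Thrsp (-1.98), Lpin1 (-1.93), Fads2 (-1.09 ± 0.10) and Fads1 (-0.76), an inducer of lipogenesis, a phosphatidate phosphatase and 2 fatty acid desaturases, were lower. Fasn, the fatty acid synthase, was not called (-0.20 ± 0.23). Elovl3, an elongase of male liver, was 7.39-fold higher, with levels of 5.53, 4.56, 5.22 and 5.49 against 7.92, 8.17, 8.16 and 8.10. In cholesterol synthesis, 3 of 24 genes were lower, 2 were higher (5 without WSB/EiJ replicate 4) and 19 were not called, with a median of -0.26. Under quantile, spike-in and normexp settings 5 to 7 were lower and 0 or 1 higher. Stard4, a sterol carrier, was 4.52-fold lower in the brightest of its probes and not called in the other. Sc5d, a late enzyme of the pathway, was 1.90-fold lower.

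Fatty acid oxidation gave 8 higher and 6 lower genes of 26, and under quantile scaling 6 and 9, or 5 and 10 with normexp. Pdk4, which turns off pyruvate oxidation, was 4.06-fold higher, and Ehhadh, a peroxisomal enzyme of the same pathway, was 1.91-fold higher. Acot3 (-2.53), the hormone gene Fgf21 (-2.08) and Cpt1a (-0.92), the gate of fatty acids into mitochondria, were lower. Among Cyp4 fatty acid hydroxylases, Cyp4f15 (0.93 ± 0.11) and Cyp4a12a (0.81 ± 0.13) were higher and 7 of 9 were not called.

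The lipid droplet list held large differences in both directions. Fitm1, a droplet-forming protein, was 18.4-fold higher (4.20 ± 0.16) while its relative Fitm2 was lower (-2.38). Plin4 (2.00), Angptl4 (1.76) and Plin5 (0.80) were higher, and Pparg, the receptor that drives several of these genes in fat, was 1.61-fold higher (0.69 ± 0.13). Fabp4 was 2.12-fold lower, and Plin2 (0.03) and Cd36 (0.38 ± 0.29) were not called. Of 19 tested, 7 were higher and 4 lower. Hsd17b13 belongs to this list, and its probes disagreed, as described below. Among apolipoprotein genes, Apoa4 (-1.11 ± 0.24) and Apoa5 (-0.96 ± 0.12) were lower and Apom (0.57 ± 0.08) was higher, with 13 of 22 not called.

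Of 24 bile acid genes, 6 were higher and 8 lower. The number higher was 4 under quantile scaling and 2 under spike-in or normexp settings, with 8 lower in each. Cyp7a1, which takes the first and limiting step from cholesterol to bile acids, had levels of 3.19, 3.98, 3.30 and 3.63 in C3H/HeJ and of 2.06, 2.48, 2.63 and 1.04 in WSB/EiJ (2.77-fold lower, adjusted p = 0.00759). Nr0b2, the nuclear receptor that represses it, was higher by 1.51. Cyp39a1 had levels of 3.78, 4.39, 4.61 and 4.35 against -1.22, -2.29, -2.89 and -2.63. Abcg5 and Abcg8, which pump sterols into bile as a pair, were lower together, Abcg5 by 3.91-fold (-1.97 ± 0.13) and Abcg8 by -1.85. The uptake transporter gene Slco1a1 was 1.88-fold higher.

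Methionine, folate and choline genes, the pathway that the diet supplies, gave 15 of 41 higher, 4 lower and a median of 0.13. That split was 8 higher and 11 lower under spike-in scaling, and 8 were lower without C3H/HeJ replicate 2. Besides Nnmt, the glycine cleavage genes Amt (4.02-fold, 2.01 ± 0.12) and Gldc (1.20) were higher, and so was Chka (2.26 ± 0.23), the choline kinase, in all 4 of its probes. Gnmt, which disposes of surplus S-adenosylmethionine, was 2.18-fold higher, at 8.92, 8.95, 8.63 and 9.22 against 9.97, 9.99, 10.15 and 10.11. Pemt, which makes phosphatidylcholine by methylation, was 1.39-fold lower in all 3 probes (-0.48 ± 0.09). Bhmt, the betaine-dependent methyltransferase, was not called in its brightest probe (0.46 ± 0.17, adjusted p = 0.0512), and 1 of its 4 probes was called lower. Without C3H/HeJ replicate 4 the difference was 0.62 (adjusted p = 0.00325). Folr2, a folate receptor found on macrophages, was dark on all WSB/EiJ arrays and at least 2.36-fold lower. Among DNA methylation enzymes, 5 of 12 were higher and 0 were lower, but 3 and 2 under spike-in scaling and 2 and 1 with normexp. Dnmt3b was 2.22-fold higher in the brightest of its probes. Another of its probes was called higher (0.78), and a further probe was not called (0.52). Mbd4 was at least 1.41-fold higher, while the maintenance enzyme gene Dnmt1 was not called (-0.21).

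Drug-metabolising cytochromes differed in both directions, with 10 of 36 higher, 8 lower (5 without C3H/HeJ replicate 1, 3 or 4) and a median of 0.18. The balance turned under other scalings, to 6 and 12 (quantile), 8 and 14 (spike-in) or 7 and 12 (normexp). Cyp2c23 was 12.7-fold higher (3.66 ± 0.16) and Cyp3a13 5.04-fold higher (2.33 ± 0.13), while Cyp2c55 (-3.79) and Cyp3a11 (-1.27) were lower. The probes of Cyp2c37 were called in opposite directions (-1.50 and 0.61). Cyp2b9 overlapped between the strains and was not called (0.56 ± 0.50). The conjugating enzymes were more often higher, with 12 of 19 sulfotransferases and UDP-glucuronosyltransferases higher and 4 lower (8 or 9 higher under spike-in, quantile or normexp settings). Sult1c2 had levels of 2.83, 2.71, 2.74 and 2.31 in C3H/HeJ and of -4.81, -3.67, -4.04 and -4.52 in WSB/EiJ, where 1 array was above background. Sult1e1, the oestrogen sulfotransferase, was 244-fold higher in WSB/EiJ (7.93 ± 0.49), with 3 C3H/HeJ arrays above background. Ugt1a6a was at least 2.35-fold lower, and its probe lists 4 genes.

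Glutathione and antioxidant genes gave 17 of 38 higher and 5 lower, or 12 and 10 after quantile normalization. Nqo1, a quinone reductase, was 5.77-fold higher (2.53 ± 0.19). Gsta2 (1.46), Gsta1 (1.41), Gclc (1.10), Txnrd1 (0.96) and Srxn1 (0.84) were also higher, while Gclm (-0.40) and Hmox1 (-0.59) were lower. Gstk1 was 1.81-fold higher with almost no spread, and Glo1, whose copy number differs between inbred strains, was 1.93-fold lower (-0.95 ± 0.14).

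Of 20 male-biased and growth hormone axis genes, 12 were higher and 2 lower, with a median of 0.55, and 7 or 8 were higher under spike-in, quantile or normexp settings. Besides Elovl3, Moxd1, Slco1a1 and Cyp4a12a, Igf1, the hormone that the liver releases under growth hormone, was 1.48-fold higher (0.56 ± 0.16). Of its 5 probes, 2 that overlap in position were called higher and 1 lower. Without WSB/EiJ replicate 3 the Igf1 call was lost (0.52, adjusted p = 0.0506). Hsd3b5, a strongly male-biased steroid enzyme, was 1.74-fold lower (-0.80 ± 0.13). Of 7 female-biased genes, 1 was called, Cyp17a1 (0.57 ± 0.18), and it lost its call in 4 of the 8 fits with 1 array left out (without C3H/HeJ replicate 2, 3 or 4 or WSB/EiJ replicate 3, adjusted p from 0.0510 to 0.0810). Major urinary protein genes, which are near-identical copies, gave 2 of 11 higher: Mup20 (0.55 ± 0.14) and Mup21 (0.45 ± 0.11). The other probe of Mup20 was not called (0.17). Without C3H/HeJ replicate 4, 6 members of the list were higher, and spike-in scaling gave 0 higher and 1 lower.

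Plasma protein genes that differed most belong to small gene clusters. In the clade A serpins, 5 of 20 were higher and 5 lower (3 without C3H/HeJ replicate 3 or WSB/EiJ replicate 1 or 3), with Serpina3i 24.6-fold higher and Serpina3c higher by 2.96, while Serpina1e, an alpha-1 antitrypsin, was not called (0.09 ± 0.13). Serpina6, the corticosteroid carrier, was 2.09-fold lower and Fetub, a fetuin, was 2.28-fold higher. In the acute phase list, 2 of 25 were higher and 4 lower, and normexp gave 1 and 9. Orm3 was 19.5-fold higher (4.29 ± 0.27), and Saa1 overlapped between the strains (0.38 ± 0.59, adjusted p = 0.628). C4b, a complement component, was higher by 1.83. The coagulation factor gene F11 was 2.76-fold lower. Hc, complement factor 5, was 1.33-fold higher (0.41 ± 0.11).

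Hepcidin RNA, which limits iron uptake, was lower in WSB/EiJ. Hamp had levels of 6.81, 6.32, 6.79 and 6.87 in C3H/HeJ and of 2.61, 5.56, 4.86 and 5.68 in WSB/EiJ (4.06-fold lower, adjusted p = 0.0246). WSB/EiJ replicate 1 was lowest, and without it the difference was -1.33 (adjusted p = 0.00294). The call was lost without C3H/HeJ replicate 1 (-1.98, adjusted p = 0.0561), 3 (-1.99, 0.0553) or 4 (-1.96, 0.0550). Its paralog Hamp2 had levels of 5.20, 2.90, 3.42 and 3.58 against -1.82, -0.69, -1.34 and -1.16 and was 32.6-fold lower (adjusted p = 5.08e-05). Tfr2, an iron sensor, was 1.47-fold higher.

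Called differences of at least 2-fold numbered 2 of 32 urea cycle and amino acid genes and 5 of 25 gluconeogenesis and glycolysis genes. Over all genes tested they numbered 1963 of 13901. In the urea cycle and amino acid list, 16 of 32 were higher and 3 lower, but 7 and 7 under quantile or spike-in scaling. Glul, which fixes ammonia in cells around the central vein, was 3.08-fold lower (-1.62 ± 0.15), Aass, a lysine-degrading enzyme, was 1.72-fold higher and Tat was higher by 1.54. G6pc, the last step of glucose release, had levels of 4.41, 4.25, 4.59 and 5.32 in C3H/HeJ and of 8.07, 7.25, 7.31 and 7.53 in WSB/EiJ (7.46-fold higher, adjusted p = 4.33e-05). Gys2, the liver glycogen synthase, was 2.57-fold lower (-1.36 ± 0.09). Hepatocyte identity genes gave 4 of 23 higher and 4 lower, or 2 and 5 under quantile and 1 and 4 under normexp settings.

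Extracellular matrix and stellate cell genes were higher more often than lower, with 12 of 26 higher, 2 lower and a median of 0.49, and 7 higher under spike-in or normexp settings, without a filter on dim probes, or without WSB/EiJ replicate 2 or 4. Acta2, smooth muscle actin, was higher by 1.71 ± 0.45 and Vim by 1.07 ± 0.16. Pdgfrb, a stellate cell receptor, was 1.82-fold higher and Mmp2, a collagenase, was 2.00-fold higher with 3 C3H/HeJ arrays above background. Col1a1 had overlapping groups and was not called (0.40 ± 0.31). Among endothelial markers, 7 of 16 were higher and 2 lower, led by Dnase1l3 (3.63-fold, 1.86 ± 0.14), with Stab1 1.65-fold higher and Lyve1 lower (-1.09). Among biliary markers, 5 of 11 were higher and 2 lower, with Sox9 5.27-fold, Cftr by 2.02 and Slc4a2 1.54-fold higher, and Krt19 not called (0.16). Those lower numbered 0 under median, quantile and normexp settings and without C3H/HeJ replicate 1 or 3 or WSB/EiJ replicate 1, 2 or 3. The mesothelial list gave 1 call, Krt8 (0.45), whose other probe was not called (0.50). The pancreas list gave 1, Ctrb1 (0.46 ± 0.11), and the adipose list 1, Fabp4. Upk3b, Ins1, Prss1 and Adipoq, defining markers of these lists, were not tested, because no probe with their names passed the background filter.

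Of 20 cell cycle genes, 5 were higher and 3 lower, and under spike-in scaling 3 and 5. The number higher was 3 without C3H/HeJ replicate 1 or WSB/EiJ replicate 1, 2 or 4. Ccne1, which starts DNA replication, was 4.62-fold lower in both probes (-2.21 ± 0.17) and Mcm6, a replicative helicase subunit, was 3.52-fold lower, while the proliferation marker Mki67 was not called (-0.44). Among p53 targets and ATF4 stress genes, 9 of 23 were higher and 2 lower, and under spike-in scaling 3 and 4. Asns, an amino acid stress target, was 5.69-fold higher (2.51 ± 0.38) and Gadd45a was 5.69-fold lower (-2.51 ± 0.24).

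**Figure D3:**
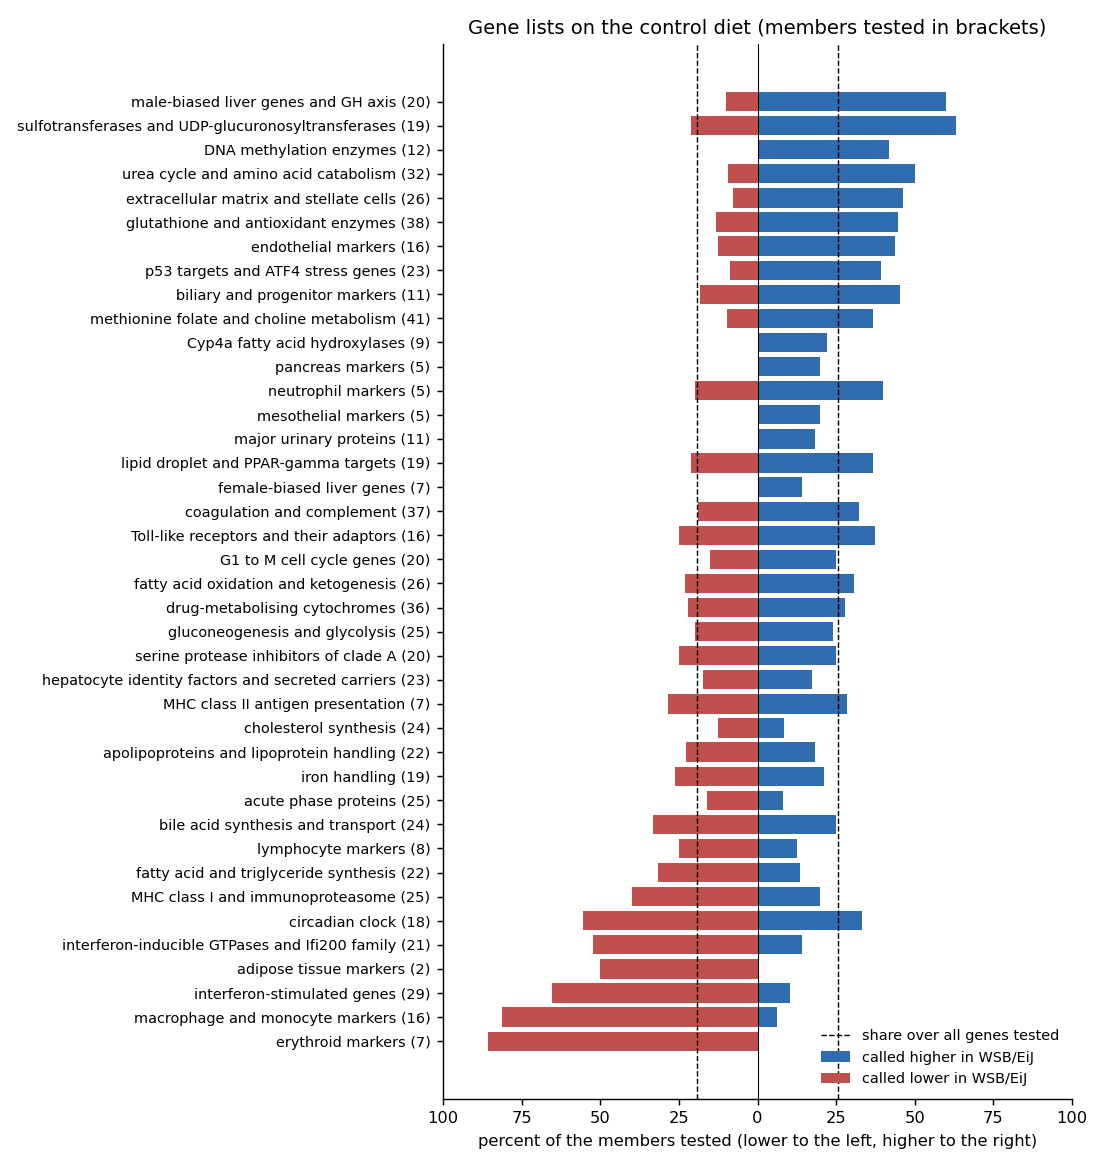
Percent of the tested members of 40 gene lists called higher (blue, to the right) and lower (red, to the left) in WSB/EiJ on the control diet, with dashed lines at the shares over all genes (25.7% and 19.3%). Macrophage, erythroid, interferon and clock genes extend farthest to the left, and conjugating enzymes and male-biased genes farthest to the right.

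A strain variant under a 60-base probe can lower its signal without any difference in RNA, so the probes of a gene were compared. At the level of probes, 8161 of 18399 (44.4%) were called. Of the genes tested, 10235 had 1 probe and 3666 had at least 2, and 928 genes were called alike in at least 2 probes, 537 higher and 391 lower. Probes counted as alike could overlap in position, as 2 of those of Ccl27a did. In 155 genes, probes were called in opposite directions. For 1637 called genes with several probes, 2002 other probes could be set beside the brightest one: 78.5% had the same sign, 50.2% were also called with that sign and 8.19% were called with the other. Where the brightest probe differed at least 4-fold, these shares were 83.8%, 75.2% and 7.62%. Other probes that overlapped the brightest one in position had the same sign in 95.8% of cases.

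**Figure D4:**
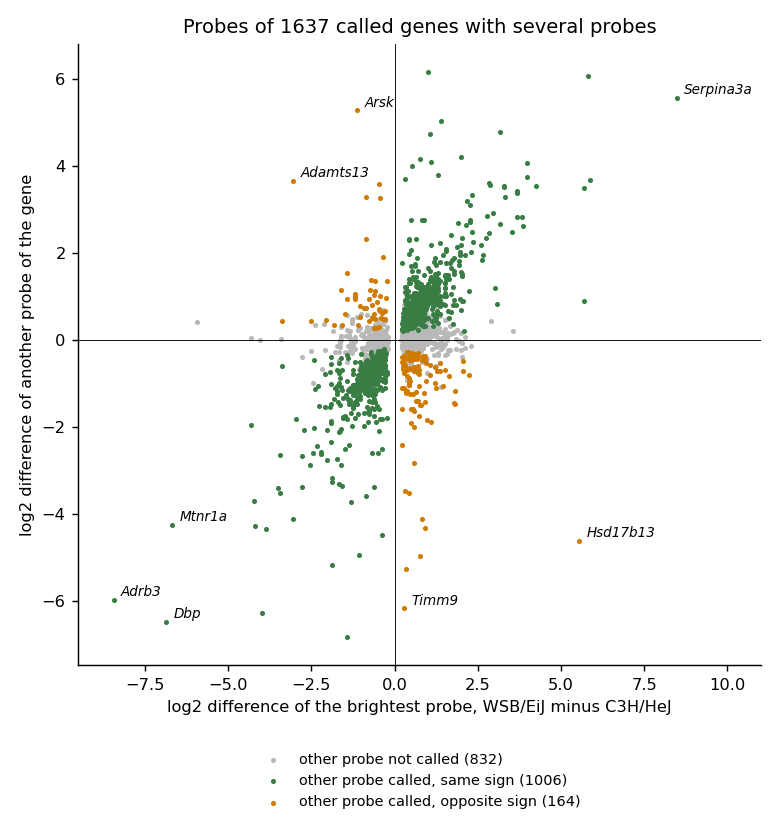
Strain difference (log2, WSB/EiJ minus C3H/HeJ) of another probe of a gene against that of its brightest probe, for 2002 other probes of 1637 called genes. Green points (1006) were called with the same sign and orange points (164) with the opposite sign, among them Hsd17b13, Adamts13, Timm9 and Arsk, and grey points (832) were not called. Points of probes dark in one strain show the measured signal, not an exact difference.

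The widest disagreement was in Hsd17b13, a lipid droplet enzyme of hepatocytes on chromosome 5. Its brightest probe was 47.0-fold higher in WSB/EiJ, with levels of 1.58, 1.79, 1.66 and 1.69 in C3H/HeJ and of 7.04, 7.22, 7.28 and 7.39 in WSB/EiJ. The other probe, 8091 bases away, was lower by -4.62, with means of 3.01 and -1.62. On the deficient diet the probes gave 5.75 and -4.25, the same pair of signs. Adamts13, the protease that cuts von Willebrand factor, gave -3.04 in the brightest probe and was called higher in a probe that was not well above background on any C3H/HeJ array. Timm9, a chaperone of mitochondrial import, gave 0.29 in the brightest probe and was called lower in a probe dark in WSB/EiJ. Arsk, a lysosomal sulfatase, gave -1.12 and was called higher in a probe dark in C3H/HeJ. The size of a difference in such a dark probe is not given. The probes of these genes lay 9867, 10229 and 1117 bases apart. No one direction of RNA level can be given for these 4 genes. In 122 of the 155 genes both probes were above background on all 8 arrays, and in 69.0% of the 155 both signs recurred on the deficient diet.

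The central 30 bases of the 60-base probes that disagreed are printed. Capitals mark the middle 10 bases of the probe, where a mismatch disturbs hybridisation most, and positions are those of the whole probe in mm9:
Hsd17b13, higher, chr5:104392792-104392851, minus strand: attcaatttgAAGCAATTGTgggccacaaa
Hsd17b13, lower, chr5:104384701-104384760, minus strand: atatgagtatCTGTGATGGTttgtatatgc
Adamts13, higher, chr2:26862185-26862244, plus strand: tggcatgactTTCAGCACCAaaaccaacac
Adamts13, lower, chr2:26852318-26852377, plus strand: gctagaccgtGGCCACCCGAtatctgtacc
Timm9, higher, chr12:72226471-72226530, minus strand: acttacagaaACCTGCTTTTtggactgtgt
Timm9, lower, chr12:72236700-72236759, minus strand: actttgaatcGGGAAACAATaggaattcat
Arsk, higher, chr13:76198809-76198868, minus strand: ccaccaatagGTAGCAAATAttttattttt
Arsk, lower, chr13:76199926-76199985, minus strand: cgttctattgTAAACTACCCtaaagtgtct
Each probe of a pair lies on the same strand and chromosome as its partner. The WSB/EiJ and C3H/HeJ sequences under them were not analysed here, so the part of strain variants was not tested.

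Called genes were spread over the genome, with a median of 45.5% called in 622 windows of 2 Mb that held at least 8 tested genes. The median window held 0 genes past 4-fold. The window on chromosome 17 from 34000001 to 36000000 (mm9), which holds the histocompatibility genes, had 10 of 96 genes tested. Those 10 included H2-Eb1, H2-Ea, H2-Ab1 and H2-Q1. The window on chromosome 7 from 50000001 to 52000000 had 8 of 36, all 8 of the kallikrein Klk1 family. The window on chromosome 12 from 104000001 to 106000000 had 7 of 32, among them Serpina3a, Serpina3c, Serpina3f and Serpina3i. The window on chromosome 15 from 74000001 to 76000000 had 5 of 34, among them Ly6a and Ly6c1. In these families of related genes a probe may also detect a neighbour's transcripts. The other windows with at least 5 lay on chromosome 7. The one from 52000001 had 6 of 70, among them Dbp and Fgf21. The one from 106000001 had 5 of 31, and the one from 30000001 had 5 of 71, among them Hamp and Hamp2. A window with more genes tested can hold more genes past 4-fold by number alone. Whether these counts exceed what the number of genes tested would give was not tested.

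The 8 arrays of the deficient diet share no sample with the control arrays and gave a second measurement of the strain difference. There, 6244 of the same genes (44.9%) were called. Of the 6266 genes called on the control diet, 4926 (78.6%) had the same sign and 3304 (52.7%) were also called with it, while 323 were called with the opposite sign. Among genes not called on the control diet, 55.0% had the same sign. The share with the same sign rose with the size of the difference, from 73.4% of genes under 2-fold to 88.9% between 2-fold and 4-fold, 91.0% between 4-fold and 16-fold and 99.1%, all but 1 gene, at 16-fold or more. The probes and strains were the same on both diets, so a signal difference made by a variant under a probe would recur as well. Agreement between the diets therefore cannot separate such a difference from one in RNA. The strain difference itself differed between the diets in 3237 genes (23.3%).

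Most clock and erythroid genes kept the direction of their strain difference on the deficient diet. Of the 16 clock genes called on the control diet, 14 were called with the same sign. The strain difference differed between the diets in 5 of 18 clock genes and 0 of 7 erythroid genes, against 23.3% of all genes. Dbp gave levels of 7.01, 7.15, 7.54 and 7.53 against 0.92, 0.34, 0.50 and 0.50. Its difference of differences was 0.12 ± 0.27 (adjusted p = 0.774), and that of Arntl 0.21 ± 0.40. All 6 erythroid genes called on the control diet were called lower again, with a median of -1.31 in the list.

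Many interferon and macrophage genes did not keep it. On the deficient diet 18.7% of all genes tested were higher in WSB/EiJ and 26.2% were lower. Among interferon-stimulated genes, 15 of 29 were higher and 4 lower on the deficient diet, with a median of 0.39, and 25 of 29 differed between the diets. Oas1a gave levels of 4.73, 4.72, 4.48 and 4.63 in C3H/HeJ and of 6.81, 6.72, 7.06 and 6.57 in WSB/EiJ, so the strains stood in the opposite order (difference of differences 4.37 ± 0.19, adjusted p = 3.91e-09). Among macrophage markers, 7 of 16 were higher and 3 lower, with a median of 0.51, and 9 differed between the diets. Adgre1 gave 2.67, 2.42, 1.89 and 1.68 against 2.95, 3.14, 2.80 and 2.88, and Cx3cr1 gave 1.70, 2.10, 1.46 and 0.46 against 2.83, 2.41, 1.98 and 2.62. Both were called higher in WSB/EiJ there. Ly6a, 43.0-fold lower in WSB/EiJ on the control diet, was at 2.59, 3.06, 2.00 and 1.92 against 3.34, 2.93, 2.91 and 2.72 and was not called. The Kupffer cell marker Timd4 kept its direction (-2.06).

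**Figure D5:**
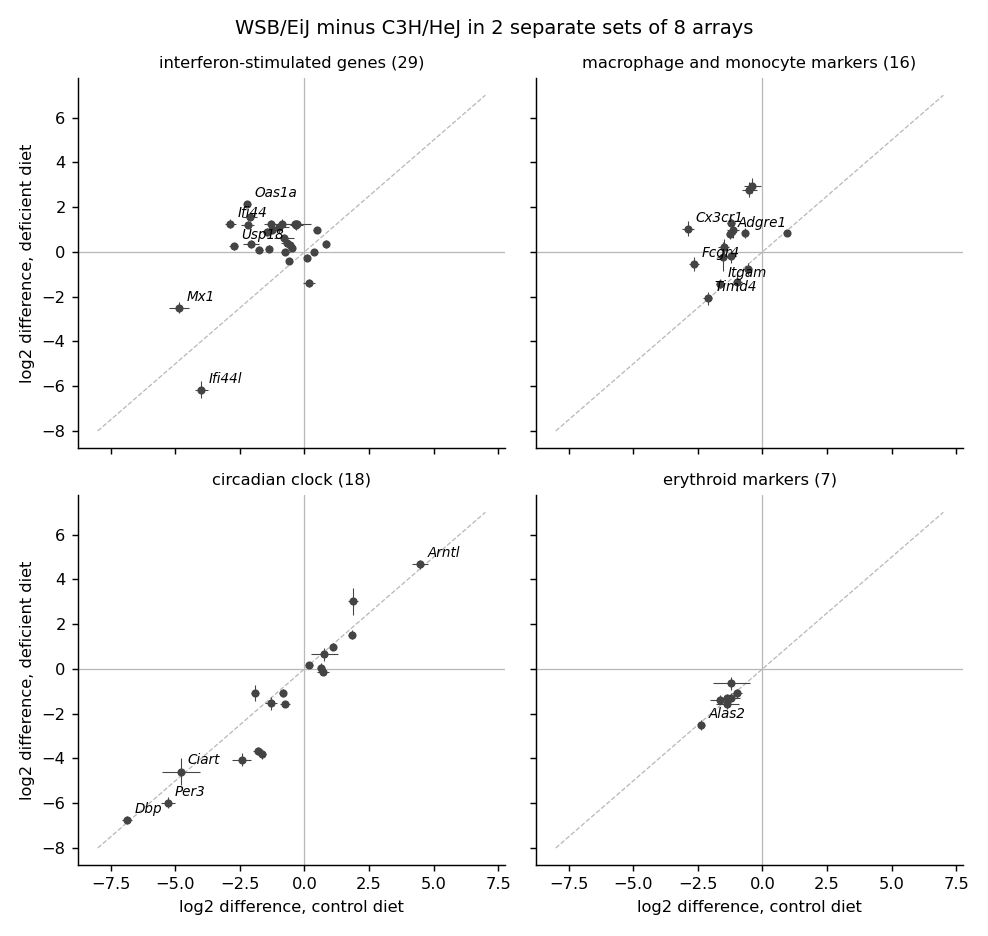
Strain difference (log2, WSB/EiJ minus C3H/HeJ) on the deficient diet against that on the control diet for 4 gene lists, with bars of 1 standard error and a dashed line of equality. Most clock and erythroid genes lie on the same side of 0 on both diets, while most interferon-stimulated genes and several macrophage markers, such as Oas1a, Cx3cr1 and Adgre1, lie left of 0 on the control diet and above 0 on the deficient diet.

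In several metabolic lists, more genes were lower in WSB/EiJ on the deficient diet than on the control diet. List counts on the deficient diet were made only with scaling to the 75th percentile, so their dependence on scaling was not tested. Over all genes, those that differed between the diets fell from 3237 to 1940 with median centring and to 2050 with spike-in scaling. Conjugating enzymes went from 12 higher and 4 lower to 1 higher and 14 lower of 19, and 13 differed between the diets. Male-biased genes went from 12 and 2 to 3 and 8 of 20, with 11 that differed, and major urinary proteins from 2 and 0 to 1 and 8 of 11, with 8 that differed. Elovl3 gave -4.56 ± 0.73 as its difference of differences, Moxd1 -5.17 ± 0.89 and Hsd3b5 -3.60 ± 0.60. Drug-metabolising cytochromes went from 10 and 8 to 4 and 26 of 36. Extracellular matrix genes kept their direction, with 21 of 26 higher and 0 lower and a median of 1.21.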

How the data were processed

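Cy3-labelled RNA of snap-frozen liver (0.5 ug per sample) was hybridised by the authors to 60-base mouse arrays, per the labels, 8 arrays on each of 3 slides. The deposited intensities were made with Feature Extraction 10.7, per the submitters' processing notes. Per the file headers, the software corrected background and detrended each array, spatially and multiplicatively, without scaling between arrays. The authors' deposited table of normalized intensities equalled these signals times 1 constant per array in 24 of 24 columns (within 1e-05), and 0 columns lacked a sample. Positions are those of the array files (NCBI37, mm9). Gene names could be attached to 32740 of 55681 distinct probes (26855 by RefSeq accession), and unnamed probes entered only as an alternative.

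Outlying spots were dropped, spots of a probe were averaged, and log2 intensities were scaled by subtracting the 75th percentile of each array. A probe entered the test if all 4 arrays of either strain exceeded background, and a gene was represented by its brightest probe. A mean per strain was fitted to the 8 arrays with limma 3.58.1 in R 4.3.3, with 2-sided moderated tests (lmFit, eBayes) and Benjamini-Hochberg adjusted p at most 0.05. The deficient diet was fitted on its own 8 arrays, and the difference of differences on 16. Tested on simulated data with 13901 genes, the control diet fit recovered 40% of genes changed 1.5-fold, 76% at 2-fold and 96% at 4-fold. At each fold 50 genes were changed, a far smaller share than the 45.1% called in the data. The p adjustment was therefore stricter in the simulation, and these shares are not those of the data. The number of arrays limits the precision.

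The genes and 40 lists (869 members, 749 tested) were chosen with earlier results of these data known. Named are the 10 largest differences in each direction with at least 2 probes called alike, the 4 largest bounds in each direction, the 3 largest in each direction with 1 probe, the 4 widest disagreements between probes, up to 2 members per list with the lowest adjusted p, and a panel. Symbols that are only clone or locus numbers were passed over, and a few named genes are not reported here. Alternatives were other scalings, background correction, filters, probe choices, blocks, thresholds and each array left out. List counts under other settings and values within slides were added after the data were seen.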

Additional observations from a re-analysis of the deposited data

Results flagged for a closer look

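In the following cases 1 array lay apart from the other 3 of its group, by a share of the group's range that chance exceeds in about 1 of 20 groups. This held for 17 of 258 groups (6.59%), 5 of them in C3H/HeJ replicate 2 and 3 each in WSB/EiJ replicates 3 and 4. In C3H/HeJ replicate 2 the levels were -0.29 for Lonrf3, -0.95 for Lnx1, 5.22 for Fads2, 3.62 for Tmem14c and 6.32 for Hamp. In WSB/EiJ replicate 4 they were 3.64 for Serpina3f, 2.36 for Lonrf3 and 5.61 for Sc5d. In WSB/EiJ replicate 3 they were 1.24 for Dbp, 5.17 for Nnmt and 5.48 for Slco1a1, in WSB/EiJ replicate 2 -0.72 for Raet1e and -1.12 for Irak4, and in WSB/EiJ replicate 1 6.39 for Cyp4a12a. In C3H/HeJ replicate 1 the level was -2.91 for Mmp2, and in C3H/HeJ replicate 4 the levels were -0.57 for Dnase1l3 and -1.68 for Pparg. The arrays of the strains did not overlap in any of these genes.

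In 59 of the 129 named genes reported here the strain difference on the deficient diet differed from that on the control diet, by limma's test of the difference of differences over 16 arrays (adjusted p at most 0.05), against 23.3% of all genes tested. Many named genes were chosen for a large difference on the control diet. The values below are that difference of differences on the log2 scale. For Ccdc30, H2-Ea, Ifi44l, Lnx1, Mtnr1a and Serpina3a, which were not well above background on any control array of one strain, the size is not exact. Called with opposite signs on the diets were 5 genes, Oas1a (4.37), Cx3cr1 (3.91), Adgre1 (2.03), Cyp4a12a (-1.99) and Slc4a2 (-1.55). Immune genes moved towards WSB/EiJ in Ly6a (6.01), Pilra (2.80), Fcgr4 (2.10), H2-Ea (1.94), Gbp3 (1.83), Tlr4 (1.20), H2-Q8 (0.81) and Irak4 (0.75), and away from it in Ifi44l (-2.17), Ly6g (-1.04) and Camp (-0.77).

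Genes of growth, matrix and signalling moved towards WSB/EiJ in Gadd45a (2.63), Rgs3 (2.43), Serinc2 (2.33), Hunk (1.89), Mmp2 (1.71), Lnx1 (1.58), Ccne1 (1.17), Mcm6 (1.01) and Slc38a6 (0.76). Among lipid and bile acid genes, Cyp39a1 (4.22), Apoa4 (1.38) and Fabp4 (0.72) moved towards WSB/EiJ. Elovl3 (-4.56), Fitm1 (-3.36), Acnat2 (-2.24), Cyp7a1 (-1.96), Fasn (-1.31), Cyp4f15 (-0.99) and Ehhadh (-0.87) moved away from it.

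Among genes of drug, hormone and methyl metabolism, the values were -6.71 for Cyp2b9, -5.17 for Moxd1, -3.60 for Hsd3b5, -3.50 for Dio1 and also -3.50 for Nat8f5. They were -2.96 for Nnmt, -2.82 for Cyp2c23, -1.79 for Glul, -1.68 for Ugt3a2, -1.44 for Nqo1, -1.05 for Bhmt, -0.81 for Igf1, -0.76 for Gstk1 and -0.69 for Glo1. Among secreted proteins they were -2.43 for Serpina3a, -1.86 for Orm3, -1.78 for Mup21 and -1.25 for Fetub. The remaining values were -3.63 for Ttc39a, -3.27 for Ccdc30, -2.07 for Mtnr1a, -1.59 for Tmem14c, -0.75 for Dnase1l3 and -0.70 for Timm9.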

How the results depend on the processing

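Of 3386 values of 131 named genes under 26 alternatives, 3268 kept direction and side of the threshold, 89 lost their call, 5 gained one and 24 changed sign. Those with changed sign follow. Quantile normalization gave -0.32 for H2-K1, -0.0872 for Serpina1e and -0.0484 for Alb. E1A scaling gave -0.19, -0.11 and -0.0901 for these, and normexp -0.27, -0.15 and -0.12, with -0.0057 for Hc. The mean of a gene's probes gave 0.31 for Adamts13, -2.94 for Timm9, 2.08 for Arsk, -0.17 for H2-K1, -0.27 for Bhmt and -0.0084 for Igf1. The probe with the smallest difference gave 0.0452 for Rgs3, -4.62 for Hsd17b13, -0.35 for Bhmt, -0.0565 for Serpina1e and -0.024 for Igf1. Array weights gave -0.0632 for H2-K1 and -0.16 for Cyp2b9. Leaving out 1 array gave H2-K1 from -0.0988 (without C3H/HeJ replicate 2) to 0.0698. The causes were not tested.

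Genes called on the control diet numbered between 5241 (no filter on dim probes) and 6490 (slide as a random block) under other scalings, filters and blocks. They numbered 7908 with array weights, 4261 at an adjusted p of 0.01, 1963 at a log2 difference of at least 1, and 5353 to 7070 with 1 array left out, the highest without C3H/HeJ replicate 2. Genes higher were 33.1% of those called with E1A scaling and 46.3% with normexp. Genes called on the deficient diet numbered 3784 at 0.01 and 2216 at a log2 difference of 1. Genes called alike in 2 probes numbered 539 and 225 at these thresholds, and genes with opposite probes 63 and 12, with 97 for no filter and 250 with array weights. Differences between the diets numbered 1940 with median centring, 2050 with E1A scaling, 4870 with array weights, 1312 at 0.01 and 1337 at a log2 difference of 1. The stricter thresholds call fewer genes by construction, and for the other settings the cause was not tested.

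Equal replicate numbers did not pair the samples: the correlations of deviations were -0.06, 0.013, -0.025 and 0.097. With the replicate block, 5655 genes were called on the control diet. Signal over background limits the 90 called genes dark in C3H/HeJ and the 115 dark in WSB/EiJ, whose folds are bounds.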

Other observations

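Some genes outside the naming rule, each with 1 tested probe that was not well above background in one strain, also differed widely, and the 4 below were singled out after their values were seen. Means are given for C3H/HeJ first, then WSB/EiJ, in log2 units relative to the 75th percentile of each array. The locus LOC100503910, which has no gene name, was at least 791-fold lower in WSB/EiJ, with means of 5.66 and -5.91. Dclk3, a kinase of the doublecortin family, was at least 155-fold lower, with means of 3.31 and -5.58. Ces2h, a liver carboxylesterase, was at least 55.4-fold higher, with means of -6.21 and 1.79, and Col5a2, a fibrillar collagen chain, at least 62.7-fold higher, with means of -5.72 and 1.97. All 4 kept the direction on the deficient diet, with differences of -12.76, -4.60, 7.29 and 3.36. No other probe of these genes was tested, so agreement between probes is unknown.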
